A study of Mus musculus with 9 samples.

Results

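The 30 genes described here encode the enzymes of cholesterol synthesis and the proteins that control, carry, export or modify sterols. They came as a list of names, chosen with earlier results of these data known. The list holds 17 synthesis enzymes, 3 genes of sterol control and transport, 3 efflux genes, 2 liver X receptor genes, 3 genes of oxysterols and sterol esters and 2 genes of lysosomal cholesterol export. Each symbol matched 1 of the 55385 gene rows in the deposited table. All 30 had at least 0.5 FPKM (fragments corrected for the length of the transcript and for depth) in at least 3 of 9 libraries and were therefore among the 16982 genes tested. The lowest count of any of them in any library was 36.

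RNA depleted of ribosomal RNA came from the ischemic hemisphere of male C57BL/6 mice of 8 to 10 weeks, with 3 libraries in each of 3 groups. Mice of the tMCAO group had the middle cerebral artery closed by a filament for 90 min and then reopened, a transient occlusion that models ischemic stroke. The celastrol group, labelled cela, had the same occlusion and was given the plant triterpenoid celastrol at 4.5 mg/kg into the abdominal cavity when blood flow returned. The sham group had the surgery with no occlusion of that artery. The sources used here do not give the hour of sampling, any injection in the other groups or the number of animals behind each library. The p-values below therefore measure only the spread between these libraries, which may be technical.

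Brain cholesterol is made within the brain, because lipoproteins of the blood do not cross the blood-brain barrier, and most of it sits in myelin. When membrane sterol is low, the transcription factor SREBP2 is released from the endoplasmic reticulum and raises transcription of the synthesis enzymes together, while INSIG proteins hold it back when sterol is plentiful. When sterol is plentiful, oxysterols activate the liver X receptors, which raise transcription of efflux genes such as Abca1, Abcg1 and Apoe. Astrocytes and oligodendrocytes make much of the adult brain's cholesterol, and neurons dispose of it mainly through the hydroxylase CYP46A1.

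The libraries held 60392960 to 75158625 counts (median 68726348), and every pair of libraries differed by more than sampling noise. Markers of neurons summed to 5310 to 6240 CPM (counts scaled to the library size) in tMCAO, 5120 to 8320 CPM with celastrol and 6700 to 7690 CPM in sham, so they were present in every library. The first principal component held 31.04% of the variance, and on it tMCAO replicate 1 lay at the far end from sham, at 58.12, with the other tMCAO libraries at 22.32 and 16.99. Celastrol replicate 2 lay at −23.24, near sham replicate 1 at −25.79, while celastrol replicates 1 and 3 lay at 44.07 and 20.26. Values without tMCAO replicate 1 are given below where leaving it out moved a result. No gene passed an adjusted p of 0.05 over all 16982 genes by edgeR's quasi-likelihood test in tMCAO against sham or in celastrol against tMCAO, where 2534 and 698 genes had an unadjusted p below 0.05. DESeq2 called 836 and 19 genes there.

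Promoter sequences are shown because the synthesis genes are known to be switched together and because their promoters shared a short motif here. RefSeq promoters on GRCm38.p6, each from 250 bases before to 50 bases after a transcription start, were matched for 24 of the 30 genes. They were searched on both strands for the NF-Y box CCAAT, which reads ATTGG on the other strand and binds a factor known to act beside SREBP2. The box was present in 14 of 14 matched synthesis genes (100%), in 5 of the 10 other matched genes (50.0%) and in 42.2% of the 11366 tested genes with a promoter in the table. For Dhcr7 the match lay only at a start 7069 bases downstream of the gene start in the deposited table. The starts available for Nr1h3, which held no box, lay 7718 and 7799 bases downstream of its gene start there. The promoters below are those of Hmgcs1 and Lss, which carry the box and encode enzymes, of Insig1, which controls SREBP2, and of Abca1 and Ch25h, which carry none. Capitals mark the NF-Y box on either strand.
Hmgcs1: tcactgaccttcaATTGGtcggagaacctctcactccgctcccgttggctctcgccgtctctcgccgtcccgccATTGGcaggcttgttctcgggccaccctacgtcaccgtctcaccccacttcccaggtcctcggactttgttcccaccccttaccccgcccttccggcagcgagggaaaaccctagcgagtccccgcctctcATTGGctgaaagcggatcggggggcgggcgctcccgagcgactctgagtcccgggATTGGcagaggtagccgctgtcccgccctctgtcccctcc
Lss: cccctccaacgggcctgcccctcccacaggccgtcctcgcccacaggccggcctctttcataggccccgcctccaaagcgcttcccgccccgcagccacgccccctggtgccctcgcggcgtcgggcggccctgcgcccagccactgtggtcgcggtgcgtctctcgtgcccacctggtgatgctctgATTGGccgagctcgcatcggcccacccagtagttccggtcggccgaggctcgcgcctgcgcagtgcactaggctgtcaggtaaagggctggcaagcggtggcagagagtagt
Insig1: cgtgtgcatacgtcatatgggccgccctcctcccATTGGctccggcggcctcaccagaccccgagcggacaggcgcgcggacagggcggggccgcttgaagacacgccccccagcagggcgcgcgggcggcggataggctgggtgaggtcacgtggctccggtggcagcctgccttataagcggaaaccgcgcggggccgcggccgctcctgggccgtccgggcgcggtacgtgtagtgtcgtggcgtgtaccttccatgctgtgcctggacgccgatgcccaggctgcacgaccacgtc
Abca1: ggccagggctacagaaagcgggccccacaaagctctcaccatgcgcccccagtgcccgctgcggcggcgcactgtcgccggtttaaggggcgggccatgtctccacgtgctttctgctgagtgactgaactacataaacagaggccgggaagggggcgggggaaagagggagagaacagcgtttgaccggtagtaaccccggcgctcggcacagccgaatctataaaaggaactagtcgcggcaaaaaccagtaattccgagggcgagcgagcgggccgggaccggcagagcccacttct
Ch25h: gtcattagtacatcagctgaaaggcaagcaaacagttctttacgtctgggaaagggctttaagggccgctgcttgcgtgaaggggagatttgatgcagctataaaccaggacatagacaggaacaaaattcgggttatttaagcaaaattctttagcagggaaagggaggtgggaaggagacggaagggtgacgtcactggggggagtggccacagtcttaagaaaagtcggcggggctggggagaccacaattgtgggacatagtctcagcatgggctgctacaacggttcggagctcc

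In these windows Hmgcs1 (chr13:119690101-119690400, plus strand) held 4 NF-Y boxes, and Lss (chr10:76531355-76531654, plus strand) and Insig1 (chr5:28071162-28071461, plus strand) held 1 each. Abca1 (chr4:53159846-53160145, minus strand) and Ch25h (chr19:34475099-34475398, minus strand) held 0. The GC box GGGCGG, which binds SP1, was found in 13 of 14 synthesis genes (92.9%), against 67.3% of the tested genes. The core CACNCCA of the sterol regulatory element was found in 2 of 14 synthesis genes (14.3%), Hmgcs1 and Msmo1, against 20.8% of the tested genes. The nuclear receptor hexamer AGGTCA was also in 2 of 14, Hmgcs1 and Dhcr7, against 14.9%. Matches of different motifs may overlap each other, and a match is a run of letters and not a bound site.

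**Figure D1:**
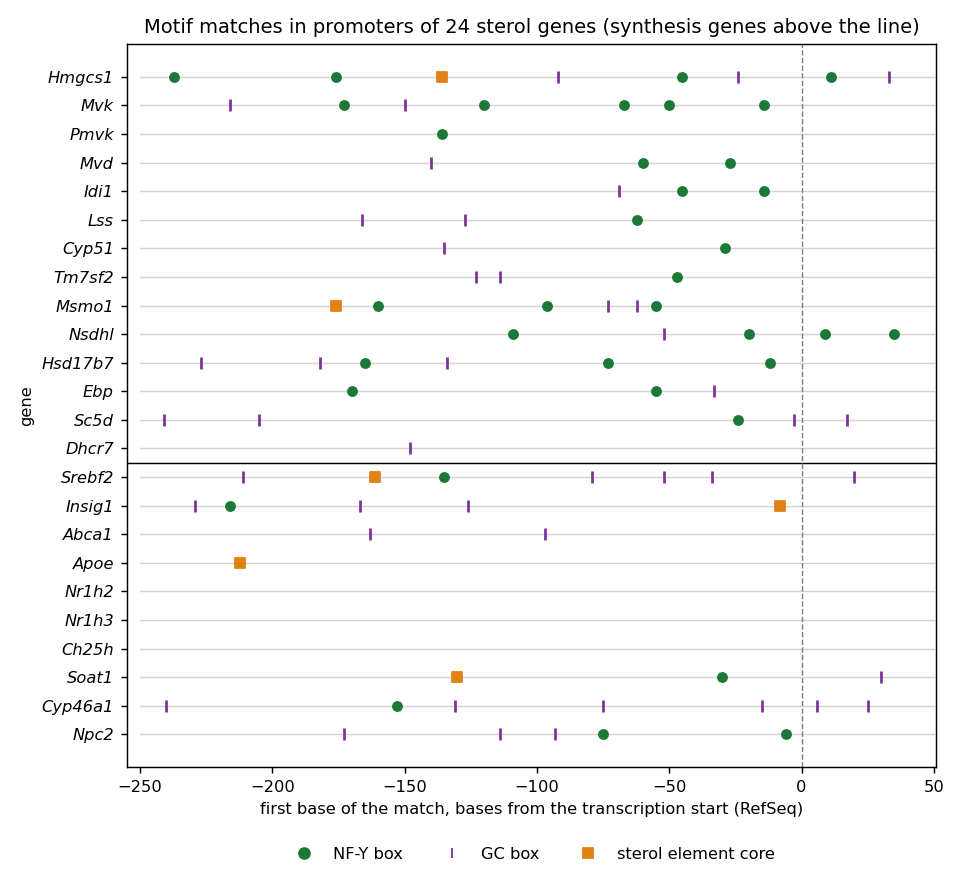
Matches to the NF-Y box, the GC box and the sterol regulatory element core in the RefSeq promoter of 24 sterol genes, 1 start per gene. The x axis gives the first base of each match in bases from the transcription start, and each row is a gene, with synthesis genes above the line. NF-Y boxes lie in the drawn promoter of every synthesis gene apart from Dhcr7 and in none of Abca1, Apoe, Nr1h2, Nr1h3 and Ch25h. The start drawn for Nr1h3 lies 7718 bases downstream of its gene start in the deposited table.

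Per length, Apoe, which encodes the main apolipoprotein of the brain, had the highest level of the 30 genes in sham, at 212 ± 52.0 FPKM (SD, n = 3). Hmgcs1, the earliest synthesis enzyme of the list, followed at 50.7 ± 6.63 FPKM and the neuronal hydroxylase Cyp46a1 at 46.8 ± 3.51 FPKM. The lowest levels in sham were those of the liver X receptor alpha gene Nr1h3, at 0.806 ± 0.152 FPKM, and of the cholesterol hydroxylase gene Ch25h, at 0.781 ± 0.512 FPKM. The other synthesis enzymes lay between 2.39 FPKM (Tm7sf2) and 17.9 FPKM (Fdft1). For 5 genes the level is uncertain, because they share exon bases with a gene that averaged more than 1 CPM. Fdft1 (with Ctsb), Cyp51 (with Akap9), Ch25h (with Gm26902) and Npc1 (with Rmc1) lie opposite their partners, and the sources used here do not say whether counting used strand. Tm7sf2 shares them with Vps51 on the same strand. Fdps and Hmgcs1 also share exon bases, 26.7% and 12.1% of theirs, with Gm43738 and Gm48342, which averaged 0.805 and 0.726 CPM.

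The comparison of tMCAO with sham addresses the effect of occlusion and reperfusion. Here the cholesterol hydroxylase gene Ch25h and the efflux pump gene Abca1 were higher in every tMCAO library than in every sham library. The synthesis enzymes were high together in tMCAO replicate 1 and close to sham in tMCAO replicates 2 and 3. The other efflux genes, Abcg1 and Apoe, differed by less than 0.25 on the log2 scale. With Benjamini-Hochberg adjustment over all genes, edgeR's quasi-likelihood test passed 0 of the 30 genes, beside 0.0% of all genes. At an unadjusted p below 0.05, 6 of the 30 were higher and 0 lower, against 8.56% and 6.36% of all genes. DESeq2 called 1 of the 30, Ch25h, against 4.92% of all genes, and limma-voom called 0, against 0.0%. Groups did not overlap for 5 genes that were higher and 1 that was lower, against 12.3% and 11.2% of all genes. The higher genes were Ch25h, Abca1, Lss, Insig1 and Hsd17b7, a share of the list near that of all genes, and the lower gene was Cyp46a1.

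**Figure D2:**
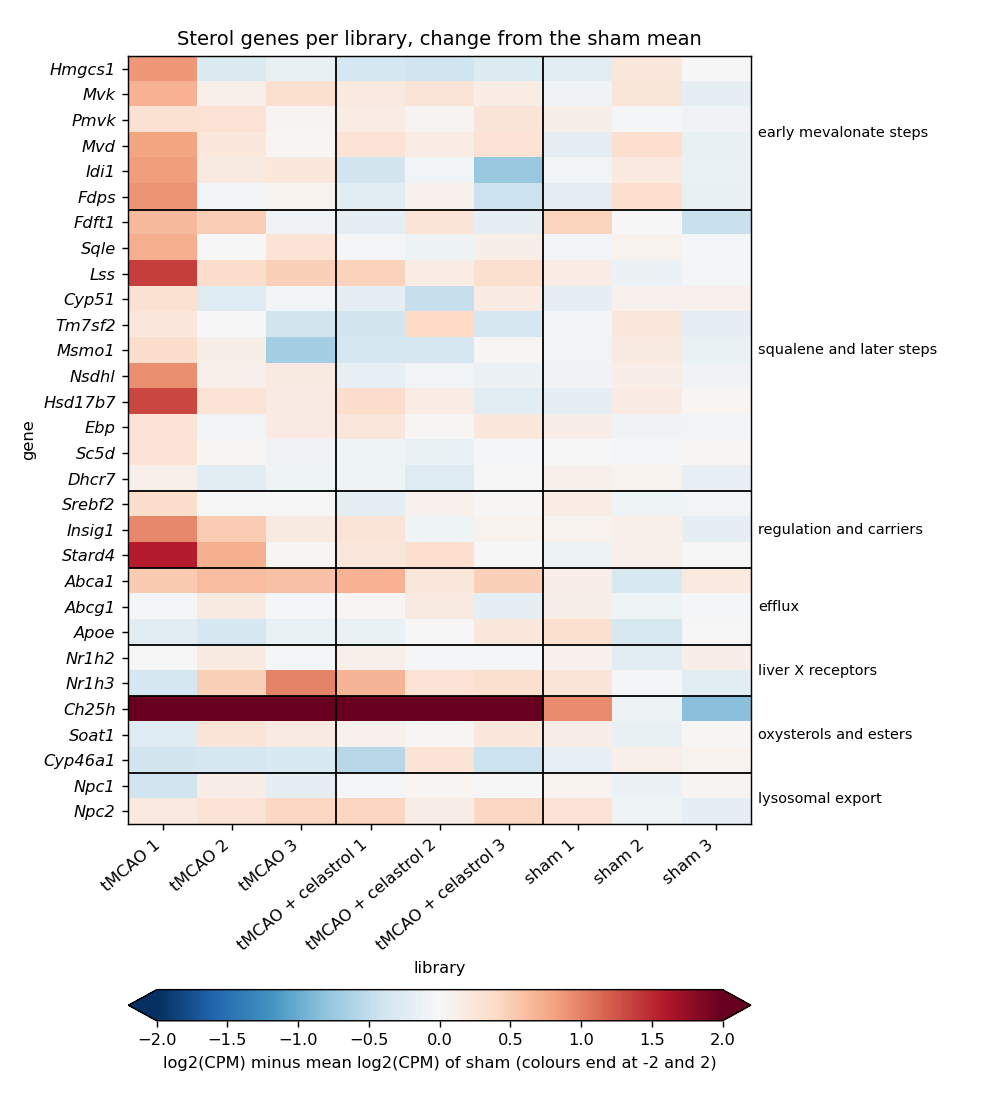
Change of each of the 30 genes from the sham mean, on a log2 CPM scale, in each of the 9 libraries (columns) with genes in rows by role. Colours end at −2 and 2. The column of tMCAO replicate 1 is red for nearly all synthesis genes, Ch25h is dark red in all 6 occluded libraries, and Abca1 is pale red in the same 6.

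Among the early mevalonate steps, Hmgcs1, which condenses acetoacetyl-CoA and acetyl-CoA, had 497, 221 and 244 CPM in tMCAO replicates 1, 2 and 3, 212, 205 and 224 CPM with celastrol and 233, 316 and 271 CPM in sham. Only tMCAO replicate 1 lay above sham, and the other occluded libraries lay within or below the sham range. Its log2 fold change in tMCAO against sham was 0.23 ± 0.28 (SE; edgeR adjusted p = 0.742), and −0.23 ± 0.14 without tMCAO replicate 1. Idi1, the isomerase that makes the allylic isoprenoid, had 58.5, 37.3 and 38.2 CPM in tMCAO, 25.4, 31.7 and 19.4 CPM with celastrol and 31.6, 37.5 and 30.1 CPM in sham. Fdps, which builds farnesyl diphosphate, had 74.2, 38.5 and 41.8 CPM in tMCAO, 34.5, 42.2 and 29.7 CPM with celastrol and 35.0, 50.3 and 35.8 CPM in sham. For both, tMCAO replicate 1 was the highest of the 9 libraries and the other tMCAO libraries were near sham. Without tMCAO replicate 1 the log2 fold change against sham was 0.19 for Idi1, in place of 0.44, and −0.0079 for Fdps, in place of 0.35. Mvk, the mevalonate kinase, ranged from 14.5 to 21.8 CPM in tMCAO, 14.9 to 16.1 CPM with celastrol and 11.9 to 16.0 CPM in sham. Mvd, the decarboxylase, ranged from 12.3 to 20.6 CPM in tMCAO, 13.2 to 14.6 CPM with celastrol and 10.4 to 15.1 CPM in sham. Together with the second kinase, Pmvk, they had log2 fold changes of 0.38 ± 0.18 (Mvk), 0.37 ± 0.23 (Mvd) and 0.22 ± 0.12 (Pmvk) with SE in tMCAO against sham, and 0.20, 0.11 and 0.17 without tMCAO replicate 1. The tMCAO and sham libraries of each overlapped.

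Among squalene and later steps, Lss, the cyclase that makes lanosterol, had 85.3, 41.8 and 45.6 CPM in tMCAO, 45.4, 36.5 and 40.9 CPM with celastrol and 36.2, 30.3 and 32.2 CPM in sham. Every occluded library lay above every sham library, though celastrol replicate 2 exceeded sham replicate 1 by little. Its log2 fold change in tMCAO against sham was 0.81 ± 0.25 (SE; edgeR adjusted p = 0.2215 with a range of 0.0675 to 0.512 over the alternatives), and 0.41 ± 0.14 without tMCAO replicate 1. Hsd17b7, a ketosteroid reductase of the pathway, had 70.0, 33.3 and 31.0 CPM in tMCAO, 35.3, 30.7 and 23.9 CPM with celastrol and 24.0, 30.8 and 28.4 CPM in sham. The tMCAO and sham libraries did not overlap, but tMCAO replicate 3 exceeded the highest sham library by little, and the log2 fold change of 0.70 ± 0.31 was 0.22 ± 0.19 without tMCAO replicate 1. Nsdhl, the dehydrogenase of sterol demethylation, had 54.4, 30.7 and 32.4 CPM in tMCAO, 25.5, 27.6 and 26.4 CPM with celastrol and 27.3, 31.6 and 27.4 CPM in sham. Sqle, the epoxidase that starts the oxygen-dependent steps, had 108, 65.1 and 78.7 CPM in tMCAO, 64.0, 60.5 and 70.1 CPM with celastrol and 62.4, 68.4 and 64.2 CPM in sham. In both, tMCAO replicate 1 again stood highest and the tMCAO and sham libraries overlapped. The log2 fold changes in tMCAO against sham were 0.45 for Nsdhl and 0.37 for Sqle, and 0.14 and 0.15 without tMCAO replicate 1.

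The remaining late enzymes differed less. Log2 fold changes in tMCAO against sham were 0.34 for the squalene synthase gene Fdft1, 0.13 for the sterol isomerase gene Ebp, 0.083 for the desaturase gene Sc5d and 0.0097 for the demethylase gene Cyp51. They were −0.011 for the methyl sterol oxidase gene Msmo1, −0.030 for the sterol reductase gene Tm7sf2 and −0.058 for Dhcr7, which encodes the reductase of the last step. Of these 7 genes, all but Tm7sf2 were still highest in tMCAO replicate 1. Tm7sf2 was highest in celastrol replicate 2, at 16.3 CPM. Fdft1 ranged from 79.0 to 130 CPM in tMCAO, 72.9 to 99.6 CPM with celastrol and 60.9 to 113 CPM in sham. Cyp51 ranged from 64.7 to 94.9 CPM in tMCAO, 56.1 to 86.2 CPM with celastrol and 68.3 to 82.1 CPM in sham. Msmo1 ranged from 55.9 to 114 CPM in tMCAO, 70.3 to 90.7 CPM with celastrol and 81.7 to 101 CPM in sham, so tMCAO replicates 1 and 3 lay on either side of all sham libraries. Dhcr7 ranged from 27.9 to 34.6 CPM in tMCAO, 26.8 to 32.5 CPM with celastrol and 28.7 to 34.4 CPM in sham. The tMCAO and sham libraries overlapped in each case. Without tMCAO replicate 1 the log2 fold change against sham was 0.18 for Fdft1 and 0.054 for Ebp, and it was −0.020 for Sc5d, −0.16 for Cyp51, −0.24 for Msmo1, −0.18 for Tm7sf2 and −0.15 for Dhcr7.

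Counted over the 17 synthesis genes, tMCAO replicate 1 was the highest of the 9 libraries for 16, where it was the highest for 16.0% of all tested genes. All 17 lay above every sham library there, against 33.6% of all genes. In tMCAO replicates 2 and 3 the count was 5 and 7 of 17, against 32.4% and 28.9% of all genes, and in celastrol replicates 1, 2 and 3 it was 4, 3 and 5, against 32.0%, 28.5% and 28.2%. The depth of tMCAO replicate 1, at 71716822 counts, was within the range of the others. Its summed oligodendrocyte precursor markers (6 of 6 measured) were the lowest of the 9 libraries, at 184 CPM against 255 to 357 CPM in the other 8. Of the 6, Gpr17 (11.5 CPM), Olig1 (40.2 CPM) and Cspg4 (10.4 CPM) were lowest in tMCAO replicate 1, and Pdgfra, Olig2 and Sox10 were not. Its summed oligodendrocyte markers (10 of 10 measured), at 4180 CPM, were within the range of 2650 to 5220 CPM in the other 8. Its summed astrocyte markers (10 of 10 measured), at 3770 CPM, were within the range of 3540 to 5110 CPM in the other 8. Its summed reactive astrocyte markers (8 of 8 measured), at 2350 CPM, were next to the highest, 2380 CPM in tMCAO replicate 3, and their mean log2 change from sham was the highest of the 9 libraries, at 4.289. The part of cell makeup in the levels of that library was not tested, and in tissue RNA more cells of a type and more RNA per cell cannot be told apart.

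Of the control and transport genes, Insig1, which retains the SREBP complex in the endoplasmic reticulum, had 126, 92.2 and 73.5 CPM in tMCAO, 77.7, 61.0 and 68.3 CPM with celastrol and 67.9, 69.8 and 57.2 CPM in sham. Its tMCAO libraries lay above all sham libraries, and its celastrol libraries overlapped with sham. The log2 fold change in tMCAO against sham was 0.58 ± 0.20 (SE; edgeR adjusted p = 0.2395), and 0.35 ± 0.16 without tMCAO replicate 1. Stard4, a cytosolic sterol carrier, had 109, 60.4 and 38.0 CPM in tMCAO, 43.1, 46.4 and 36.9 CPM with celastrol and 34.4, 39.4 and 36.8 CPM in sham. Its 3 tMCAO libraries were spread widely, and the lowest overlapped with sham. The log2 fold change was 0.90 ± 0.32 (SE; edgeR adjusted p = 0.2584), and 0.41 ± 0.20 without tMCAO replicate 1. Srebf2, which encodes SREBP2 itself, had 205, 162 and 160 CPM in tMCAO, 143, 172 and 164 CPM with celastrol and 178, 152 and 155 CPM in sham, with a log2 fold change of 0.12 ± 0.13 (SE).

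**Figure D3:**
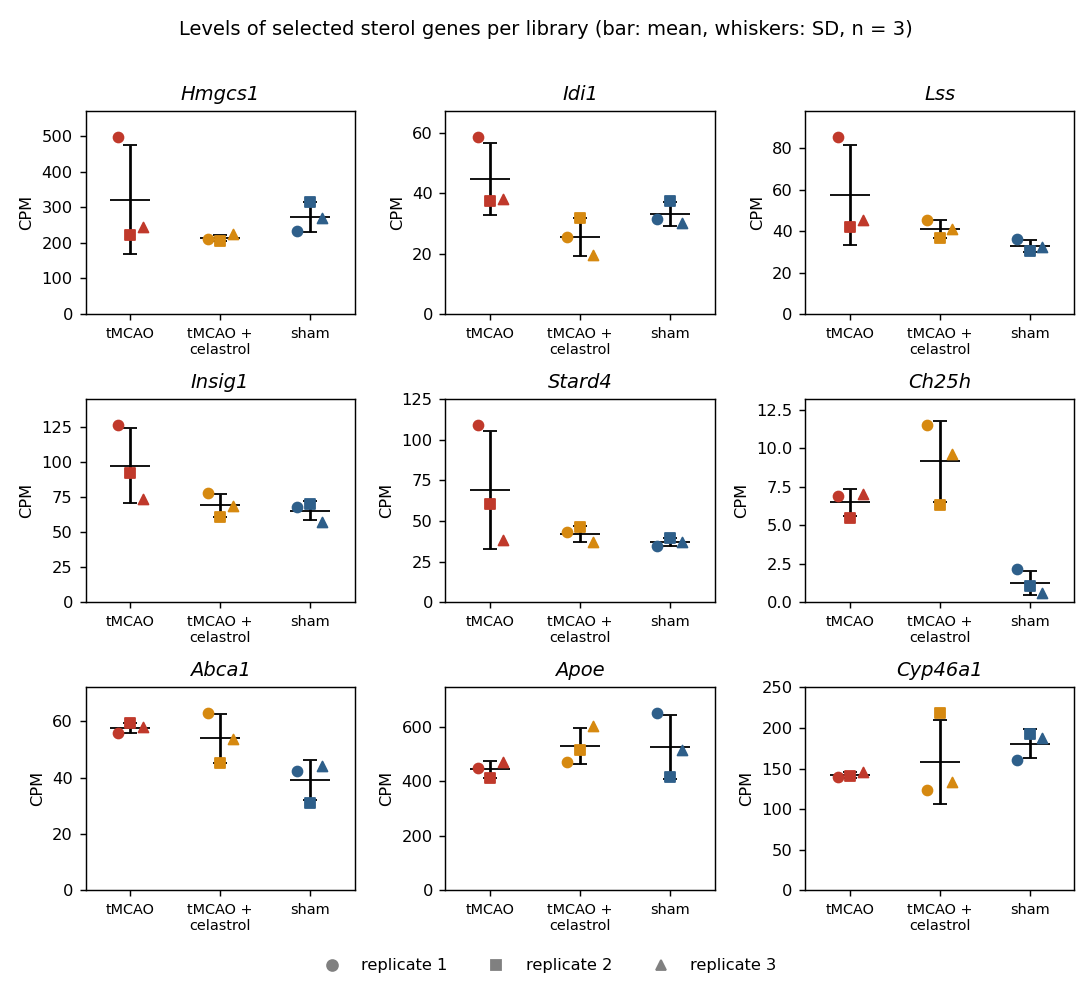
CPM of 9 sterol genes in each library, with tMCAO left, tMCAO with celastrol in the middle and sham right. Bars are group means and whiskers SD (n = 3). In Hmgcs1, Idi1, Lss, Insig1 and Stard4 the circle of tMCAO replicate 1 stands above all other points, and Ch25h has all 6 occluded libraries at 5.50 CPM or more, with sham at 2.14 CPM or less.

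The efflux genes did not move together. Abca1, the pump that loads cholesterol onto apolipoproteins, had 55.8, 59.4 and 58.0 CPM in tMCAO, 62.8, 45.3 and 53.7 CPM with celastrol and 42.3, 31.0 and 44.2 CPM in sham. All 6 occluded libraries lay above all 3 sham libraries, with celastrol replicate 2 the closest. The tMCAO mean was 57.7 ± 1.83 CPM and the sham mean 39.2 ± 7.11 CPM (SD, n = 3 each), a log2 fold change of 0.56 ± 0.16 (SE; edgeR adjusted p = 0.2034 with a range of 0.0570 to 0.499 over the alternatives). It was 0.58 ± 0.19 without tMCAO replicate 1, so this value does not rest on that library. Its lowest value with 1 library left out was 0.42, without sham replicate 2. Abcg1, a partner pump for lipoprotein particles, averaged 70.9 ± 5.72 CPM in tMCAO, 69.2 ± 8.51 CPM with celastrol and 68.5 ± 5.27 CPM in sham (SD, n = 3 each). Apoe averaged 445 ± 30.5 CPM in tMCAO, 530 ± 66.8 CPM with celastrol and 527 ± 117 CPM in sham (SD, n = 3 each). Differences of Abcg1 and Apoe were within the spread of the sham libraries, and Apoe in tMCAO against sham had a log2 fold change of −0.25 ± 0.17 (SE).

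The liver X receptor genes gave no clear difference. Nr1h2, the widely expressed beta form, ranged from 26.1 to 29.9 CPM in tMCAO, 25.7 to 28.4 CPM with celastrol and 22.7 to 29.1 CPM in sham. Nr1h3, the alpha form of macrophages and liver, had 1.88, 3.34 and 4.76 CPM in tMCAO, 3.82, 2.93 and 2.97 CPM with celastrol and 2.87, 2.32 and 2.05 CPM in sham. In tMCAO it spanned both sides of sham, with tMCAO replicate 1 the lowest of the 9 libraries. The log2 fold change was 0.46 ± 0.35 (SE), and 0.75 ± 0.29 without tMCAO replicate 1.

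Ch25h had the largest difference of the 30 genes. It makes the oxysterol with a hydroxyl on the sterol side chain that restrains SREBP processing, activates liver X receptors and limits viral entry, and macrophages induce it in inflammation. The gene, at chr19:34473778-34475164 in the deposited table, had 6.92, 5.50 and 7.04 CPM in tMCAO, 11.5, 6.32 and 9.64 CPM with celastrol and 2.14, 1.03 and 0.621 CPM in sham. The lowest occluded library was more than 2-fold above the highest sham library. In tMCAO against sham the log2 fold change was 2.35 ± 0.44 (SE), or 5.11-fold (edgeR adjusted p = 0.1057). Across the alternatives this p ranged from 1.49e-05 (DESeq2) to 0.421, and without tMCAO replicate 1 the log2 fold change was 2.31 ± 0.50. The row that overlaps it on the other strand, the long non-coding RNA Gm26902, had 3.06, 2.78 and 1.48 CPM in tMCAO, 1.59, 1.01 and 1.79 CPM with celastrol and 2.48, 1.20 and 1.07 CPM in sham. Those levels overlapped between the groups.

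Marker lists of activated microglia and macrophages, reactive astrocytes and neutrophils differed across the same libraries as Ch25h. Activated microglia and macrophage markers (8 genes) summed to 503 to 1070 CPM in tMCAO, 483 to 1100 CPM with celastrol and 348 to 418 CPM in sham. Ctsd alone gave 328 to 588 CPM of these sums over the 9 libraries. The mean log2 change from sham of the 7 markers tested was 3.167 in tMCAO and 2.742 with celastrol. Reactive astrocyte markers (8 genes) summed to 1180 to 2380 CPM in tMCAO, 644 to 2020 CPM with celastrol and 162 to 338 CPM in sham. Neutrophil markers (8 genes, 5 of them among the genes tested) summed to 9.18 to 18.0 CPM in tMCAO, 11.9 to 35.3 CPM with celastrol and 0.387 to 2.20 CPM in sham. Ly6g, Retnlg and Cxcr2 were at 0 in all 3 sham libraries. Ly6g and Camp were at 0 in all 3 tMCAO libraries as well, and neither exceeded 0.184 CPM with celastrol. For all 3 lists and for Ch25h, celastrol replicate 2 was the lowest celastrol library, and celastrol replicate 1 the highest. That order also held for the summed markers of oligodendrocytes, endothelium, ependyma and choroid plexus, the last at 1790, 7.71 and 446 CPM in celastrol replicates 1, 2 and 3. Among the tMCAO libraries the neutrophil markers were lowest in replicate 3, where Ch25h was highest. Homeostatic microglia markers (7 genes) overlapped between the groups, at 199 to 343 CPM in tMCAO, 231 to 317 CPM with celastrol and 246 to 287 CPM in sham. Their mean log2 change from sham was −0.466 in tMCAO and −0.346 with celastrol, and celastrol replicate 2 was their highest celastrol library. The part of these cells in the level of Ch25h or Abca1 was not tested.

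The esterifying enzyme gene Soat1 ranged from 34.2 to 48.9 CPM in tMCAO, 41.7 to 47.5 CPM with celastrol and 36.9 to 44.7 CPM in sham. Cyp46a1, which makes the oxysterol by which neurons export cholesterol, had 139, 141 and 146 CPM in tMCAO, 123, 218 and 134 CPM with celastrol and 160, 193 and 188 CPM in sham. It was the gene of the 30 whose tMCAO libraries all lay below sham, at a log2 fold change of −0.35 ± 0.20 (SE; edgeR adjusted p = 0.456). Summed neuron markers were 5310 to 6240 CPM in tMCAO and 6700 to 7690 CPM in sham, and celastrol replicate 2, the highest for Cyp46a1, was also the highest for these markers at 8320 CPM. Their part in the level of Cyp46a1 was not tested. Of the lysosomal export genes, Npc2, the soluble carrier, averaged 66.2 ± 4.99 CPM in tMCAO, 67.9 ± 7.59 CPM with celastrol and 54.5 ± 9.97 CPM in sham (SD, n = 3 each). Npc1, its membrane partner, averaged 74.1 ± 14.1 CPM in tMCAO, 81.7 ± 1.56 CPM with celastrol and 81.5 ± 5.60 CPM in sham (SD, n = 3 each). The groups of both overlapped.

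**Figure D4:**
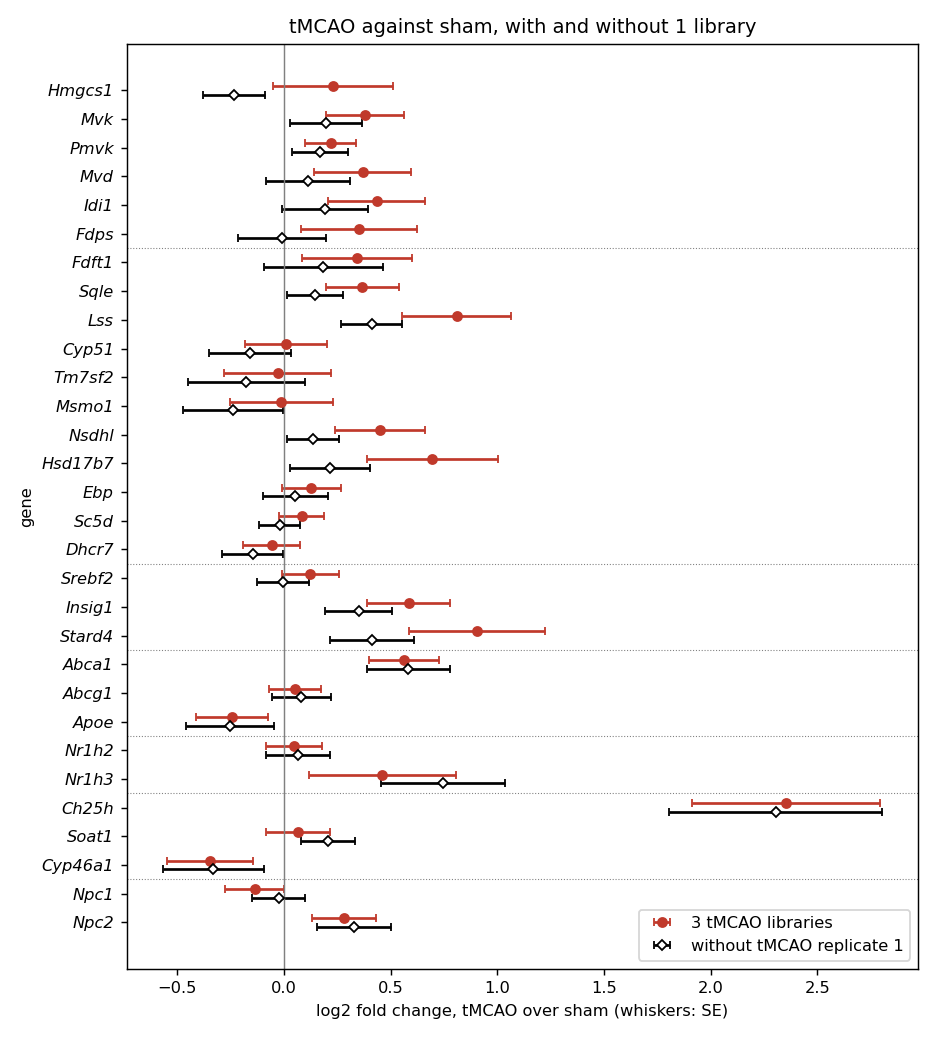
Log2 fold change of tMCAO over sham with its SE for each of the 30 genes, from all 3 tMCAO libraries (filled circles) and without tMCAO replicate 1 (open diamonds). Synthesis and control genes from Hmgcs1 to Stard4 move left without that library, while Abca1 stays at 0.58 and Ch25h at 2.31.

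Synthesis was then set against efflux. The median log2 fold change in tMCAO against sham was 0.34 for the 17 synthesis genes, of which 14 were above 0 (beside 50.9% of all genes), and 0.051 for the 3 efflux genes, beside 0.0072 over all tested genes. Without tMCAO replicate 1 the medians were 0.11 and 0.082, and without sham replicate 3 the synthesis median was 0.23. A score per library was taken as the mean log2 CPM change of a group of genes from the sham mean. The synthesis score was 0.646 in tMCAO replicate 1 and 0.0762 and 0.0286 in tMCAO replicates 2 and 3, with −0.0382, −0.0157 and −0.0467 with celastrol and −0.0236, 0.1187 and −0.0951 in sham. The library tMCAO replicate 1 stood alone, and the other 8 lay between −0.0951 and 0.1187. The efflux score was 0.1026, 0.1565 and 0.1457 in tMCAO, 0.1994, 0.1315 and 0.1701 with celastrol and 0.192, −0.2412 and 0.0492 in sham. Its occluded libraries all lay within the sham range, apart from celastrol replicate 1. The difference of synthesis minus efflux was 0.115 ± 0.371 in tMCAO, −0.201 ± 0.047 with celastrol and 0 ± 0.314 in sham (SD, n = 3 each). The celastrol libraries, at −0.2376 to −0.1472, overlapped with sham, at −0.2156 to 0.3599, and lay below the tMCAO libraries, of which replicates 2 and 3 were at −0.0803 and −0.1171 and replicate 1 at 0.5434. No test was made on these scores.

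**Figure D5:**
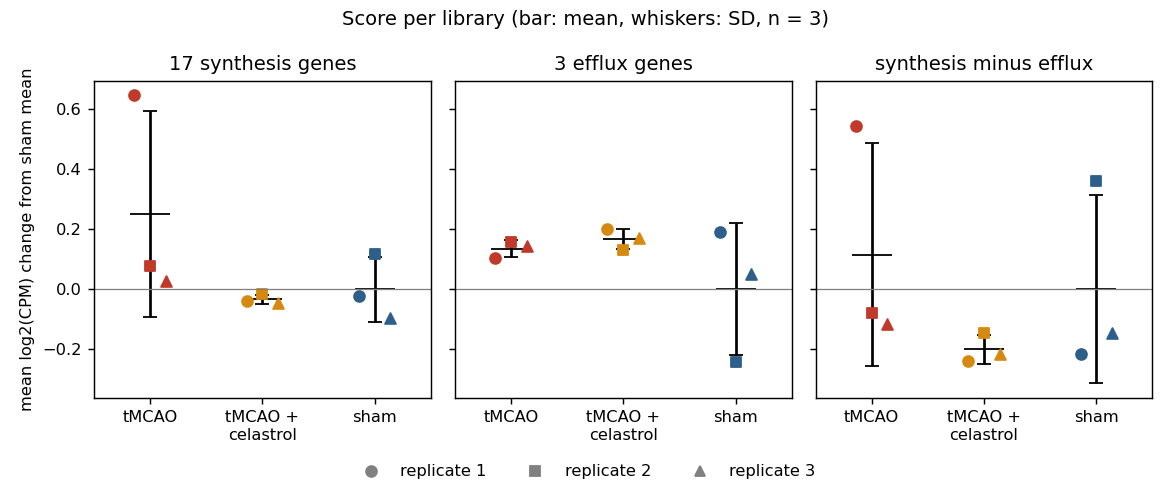
Scores per library for the 17 synthesis genes (left), the 3 efflux genes (middle) and their difference (right), as mean log2 CPM change from the sham mean, with bars for means and whiskers for SD (n = 3). The circle of tMCAO replicate 1 stands at 0.646 for synthesis and at 0.1026 for efflux.

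The comparison of celastrol with tMCAO asks what the drug changes after occlusion. The log2 fold changes furthest below 0 were those of Idi1, Stard4, Hmgcs1 and Hsd17b7. Hmgcs1 was at −0.58 ± 0.28 and Hsd17b7 at −0.58 ± 0.31 (SE), and without tMCAO replicate 1 they were at −0.12 and −0.10. None of the 30 genes passed edgeR's quasi-likelihood test, as none of all genes did (0.0%), and DESeq2 and limma-voom also called 0 of the 30, against 0.112% and 0.0% of all genes. At an unadjusted p below 0.05, 3 of the 30 were lower (Idi1, Nsdhl and Insig1) and 0 higher, against 1.86% and 2.25% of all genes. The groups did not overlap for 2 genes, both lower with celastrol, against 4.11% of all genes, and 0 higher, against 3.76%.

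Idi1, whose levels are given above, had a log2 fold change of −0.81 ± 0.23 (SE; edgeR adjusted p = 0.976 with a range of 0.279 to 0.9999 over the alternatives). All celastrol libraries lay below all tMCAO libraries, and without tMCAO replicate 1 the log2 fold change was −0.57 ± 0.20. Nsdhl averaged 26.5 ± 1.04 CPM with celastrol and 39.2 ± 13.2 CPM in tMCAO (SD, n = 3 each), at −0.57 ± 0.21 (SE; edgeR adjusted p = 0.976), and at −0.26 ± 0.12 without tMCAO replicate 1. Insig1 was at −0.50 ± 0.19, Stard4 at −0.71 ± 0.32 and Sqle at −0.37 ± 0.17 (SE), with an edgeR adjusted p of 0.976 each. Without tMCAO replicate 1 these were −0.26, −0.22 and −0.15.

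Over the 17 synthesis genes, 16 were below 0 in celastrol against tMCAO, with a median of −0.20, and 1, Ebp, was above, where 49.3% of all genes were above. The median was −0.060 without tMCAO replicate 1, and Mvd, Cyp51, Tm7sf2, Msmo1, Ebp and Dhcr7 were then above 0. Leaving out tMCAO replicate 2 or 3 gave −0.33 or −0.41, and leaving out celastrol replicate 2 or 3 gave −0.32 or −0.33. The 3 efflux genes had a median of −0.036, and all tested genes −0.0040. Ch25h averaged 9.17 ± 2.64 CPM with celastrol and 6.49 ± 0.858 CPM in tMCAO (SD, n = 3 each), at 0.50 ± 0.42 (SE), and Abca1 was at −0.098 ± 0.163. The groups overlapped for both genes. This comparison shares its tMCAO libraries with tMCAO against sham, so the opposite signs of the synthesis genes in the 2 comparisons are not separate observations.

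Against sham, the celastrol libraries also had higher Ch25h and Abca1 levels, and their synthesis genes were centred near sham. The sham libraries are the same as in tMCAO against sham and in the joined comparison below, so these are not fully separate observations. By edgeR's quasi-likelihood test 0 of the 30 genes passed, against 0.00589% of all genes. DESeq2 called 1 of the 30, Ch25h, against 2.24% of all genes, and limma-voom 0, against 0.0%. At an unadjusted p below 0.05, 2 were higher, Ch25h and Abca1, and 0 lower, against 5.69% and 2.81% of all genes. Groups did not overlap for 4 higher genes (Ch25h, Abca1, Lss and Nr1h3) and 1 lower gene (Hmgcs1), against 7.88% and 5.55% of all genes. Ch25h was at 2.85 ± 0.45 (SE), or 7.22-fold, with an edgeR adjusted p of 0.1276 and a range of 6.16e-08 to 0.514 over the alternatives. Abca1 averaged 54.0 ± 8.74 CPM with celastrol, at 0.46 ± 0.16 (SE; edgeR adjusted p = 0.468). With 1 library left out it ran from 0.32, without sham replicate 2, to 0.57, without celastrol replicate 2. Npc2 was at 0.32 ± 0.15, Pmvk at 0.16 ± 0.12 and Idi1 at −0.37 ± 0.23 (SE). The median was −0.068 for synthesis and 0.015 for efflux genes, beside 0.0029 over all genes. Of the 17 synthesis genes 6 were above 0, where 50.4% of all genes were.

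With tMCAO and celastrol joined against sham, Ch25h, Abca1 and Lss were the 3 genes of the 30 whose 6 occluded libraries all lay above the 3 sham libraries, and 0 lay below, against 4.18% and 2.54% of all genes. Of the 30, 0 passed edgeR's quasi-likelihood test, against 0.0118% of all genes, and at an unadjusted p below 0.05 there were 4 higher and 0 lower, against 8.0% and 5.39%. DESeq2 called 2 of the 30, Ch25h and Abca1, against 4.69% of all genes, and limma-voom called 0, against 0.0%. Ch25h was at 2.60 ± 0.42 (SE), or 6.08-fold, with an edgeR adjusted p of 0.0769 and a range of 4.60e-09 to 0.395 over the alternatives. Leaving out celastrol replicate 2 or sham replicate 1 brought Ch25h below 0.05 (edgeR adjusted p = 0.0380 and 0.0361). These were the celastrol library with the lowest Ch25h level and the sham library with the highest, so dropping either widens the difference. Dropping sham replicate 1 gave the largest log2 fold change, 3.22. The smallest, 2.28, came from dropping sham replicate 3, the lowest for Ch25h. Among all single omissions the edgeR adjusted p reached 0.395. Abca1 was at 0.51 ± 0.14 (SE; edgeR adjusted p = 0.2035, 0.0416 to 0.579 over the alternatives), Lss at 0.56 ± 0.22, Npc2 at 0.30 ± 0.13 and Insig1 at 0.34 ± 0.17 (SE). Without tMCAO replicate 1, Lss was at 0.36 and Insig1 at 0.22. The median of the synthesis genes was 0.14, with 12 of 17 above 0, where 50.3% of all genes were. It was 0.0075 without tMCAO replicate 1, 0.055 without celastrol replicate 2 and 0.017 without sham replicate 3.

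A further 64 genes of sterol and lipid handling were listed beside the 30, and 60 of them were tested. In tMCAO against sham 0 passed edgeR's quasi-likelihood test, 27 were above 0 and 33 below, and the median was −0.029. At an unadjusted p below 0.05, 7 of the 60 were higher and 5 lower, where the shares of all genes were 8.56% and 6.36%. Hsd3b7, an enzyme that processes oxysterols toward bile acids, had 15.6, 13.2 and 11.6 CPM in tMCAO, 7.15, 8.95 and 10.1 CPM with celastrol and 6.23, 6.22 and 7.62 CPM in sham. All tMCAO libraries lay above the rest, at 1.01 ± 0.19 against sham (SE; edgeR adjusted p = 0.1148) and −0.62 ± 0.19 in celastrol against tMCAO (edgeR adjusted p = 0.976). Pltp, which transfers phospholipid between lipoproteins, had 15.8, 9.77 and 20.4 CPM in tMCAO, 11.3, 8.29 and 15.4 CPM with celastrol and 28.6, 41.0 and 39.1 CPM in sham. All 6 occluded libraries lay below sham, at −1.24 ± 0.31 in tMCAO (SE; edgeR adjusted p = 0.1653) and −1.63 ± 0.31 with celastrol (edgeR adjusted p = 0.147). Fads1, a fatty acid desaturase, was at −0.38 ± 0.09 in tMCAO against sham (SE).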

How the data were processed

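The authors deposited 1 table with an estimated count, given as a whole number, and an FPKM value per gene and library. The submitters' processing notes name the mm10 build and the tools StringTie 1.3.4d, HISAT2 2.0.4, cutadapt 1.9, DESeq2 and edgeR. The sources used here do not give their settings or whether counting used strand. Counts of all 9 libraries entered 1 edgeR quasi-likelihood fit (edgeR 4.0.16 in R 4.3.3, two-sided) with 1 mean per group and TMM scaling. Genes reaching an FPKM of 0.5 in 3 or more libraries were tested, and p-values were adjusted by Benjamini-Hochberg over all 16982. Levels are counts scaled to the TMM-adjusted library size (CPM). The SE was obtained from the log2 fold change and the F statistic, and scores used log2 CPM with a prior count of 2. Alternatives were limma 3.58.1, DESeq2 1.42.0, other scalings and filters, and leaving out each library. The tests were run on simulated counts first. The genes described, the other lists and the tests were chosen with earlier results of these data known. Values are given for all 30 genes, with those of the smallest unadjusted p per comparison in full. Of the other sterol genes, those among the 5 with the smallest unadjusted p in tMCAO against sham are named, apart from results that are not reported here. Intervals and p-values cover the spread of these libraries only.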

Additional observations from a re-analysis of the deposited data

How the results depend on the processing

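Of the 30 sterol genes, 0 passed the adjusted threshold of 0.05 in any of the 4 comparisons under most settings. The exceptions were DESeq2, with 1 in tMCAO against sham, 1 in celastrol against sham and 2 in both occluded groups against sham, and, in the last comparison only, 1 each with limma on log2(FPKM + 0.1), with the replicate block, without celastrol replicate 2 and without sham replicate 1. Over single genes and settings, 2480 values kept their side of the threshold and direction, 8 passed it (Ch25h 7 times and Abca1 once) and 152 values that never passed changed sign. The count over all genes depended more on the setting. In tMCAO against sham it was 836 with DESeq2, 2 with the newer quasi-likelihood form, 2 with limma on log2(FPKM + 0.1) and 30 with only the groups compared. In celastrol against tMCAO it was 19 with DESeq2. In celastrol against sham it was 3 unfiltered, 2 with a minimum FPKM of 1, 380 with DESeq2, 0 with limma-voom, 6 with the newer form, 3 with limma on log2(FPKM + 0.1) and 4 with only the groups compared. For both occluded groups it was 4 with no filter, 797 with DESeq2, 0 with limma-voom, 5 with the newer form and 29 with limma on log2(FPKM + 0.1). The cause of these differences was not tested. Correlations of same-numbered deviations ran from −0.156 to 0.198. Differently numbered libraries were not set beside them, so whether replicate numbers pair the libraries was not settled. With the replicate block the counts were 51, 0, 22 and 64 genes in the order of the comparisons above.

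With 1 library left out, the count of genes ran from 0 to 91 in tMCAO against sham, 0 to 2 in celastrol against tMCAO, 0 to 46 in celastrol against sham and 0 to 200 in both occluded groups against sham. The highest counts came without celastrol replicate 2, and in celastrol against tMCAO without tMCAO replicate 2. Without sham replicate 1 the counts were 13 in tMCAO against sham and 15 in both occluded groups, and the 30 genes gave 0 to 1 in the last. The synthesis median ran from 0.11 (without tMCAO replicate 1) to 0.44 in tMCAO against sham and from −0.41 to −0.060 in celastrol against tMCAO. The efflux median in celastrol against sham ran from −0.028 (without sham replicate 2) to 0.18 (without sham replicate 1). Scaling by library totals alone moved the median of all genes in tMCAO against sham to 0.11, and the synthesis median there to 0.43. The lowest count of the genes described was 36 in any library.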
